A study of Homo sapiens with 8 samples.

Results

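The centrosome and centriole genes are the genes whose symbol is CEP followed by a number, with at most 1 letter after it, together with PLK4, STIL, SASS6, CENPJ, PCNT, PCM1, CDK5RAP2, NINL, CNTRL, POC1A, POC1B and POC5. All 48 genes with such a symbol had a mean of at least 10 normalized counts over the 8 libraries, and so were members, out of 58884 genes in the table and 17194 that reached this mean and were tested. The lowest mean of a member was 37.2 normalized counts (CEP170) and the next 151 (CEP126). They were measured by RNA-seq of poly(A)-enriched RNA from C4-2, a castration-resistant human prostate cancer cell line derived from LNCaP cells and grown in RPMI medium with serum. In one group the cells received 1 µM DTHIB (also called E12), which the labels describe as a direct inhibitor of the heat shock factor HSF1, for 48 h, and in the other the solvent DMSO for the same time. Each group had 4 libraries of this 1 cell line. Whether the 4 came from separate cultures is not stated, and the p-values therefore reflect only how these libraries scatter, which may be technical.

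The centrosome is a pair of centrioles, each a barrel of microtubules, embedded in a pericentriolar material that nucleates microtubules and sets up the spindle poles. Once in each cell cycle a procentriole grows at the side of each parent: the kinase PLK4, held on the parent by CEP152, CEP192 and CEP63, recruits STIL and the cartwheel protein SASS6, and CENPJ, CEP120 and CEP135 then help to build and lengthen the microtubule wall. The older centriole carries distal and subdistal appendages, can anchor a primary cilium, and is surrounded by small granules called centriolar satellites. Several of the assembly factors are made and destroyed with the cell cycle.

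Library totals were 29499458 to 30926053 reads in DMSO and 27229291 to 29159387 in DTHIB. Luminal prostate epithelium markers were present, 10 of 10 tested, with summed levels of 216474.5 to 220859 normalized counts in DMSO and 263885 to 269743 in DTHIB. Of these markers 7 rose and 3 fell: HOXB13, KRT8 and KRT18, with log2 fold changes of -0.22, -0.35 and -0.11. Among all tested genes 31.0% rose and 33.7% fell, and the marker counts in this paragraph stand beside these shares. Of 5 basal markers 3 reached the minimum mean and 2 fell (KRT15 and DST), and the defining ones, KRT5 and TP63, had means under 1 normalized count in each group. Of 6 blood markers 2 reached it and 1 fell (LYZ, from 16.0 ± 1.603 to 4.34 ± 1.73), and HBB was at 0 in every library. Of 8 stromal markers 4 reached it: COL1A1 rose from 962 ± 39.2 to 1289.9 ± 102, ACTA2 fell from 77.6 ± 23.0 to 39.0 ± 4.06, VIM had 823 ± 70.2 and 752 ± 68.2, and PDGFRB 51.6 ± 5.78 and 48.7 ± 12.8 (means ± SD, n = 4). The stromal markers DCN and LUM were at 0 in every DMSO library and under 1 on average in DTHIB.

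Upstream sequences are shown for the 3 members that fell most, for a pair of paralogues that differed in their response, and for 1 member that holds both cell cycle words but fell little. Each is the stretch of 250 bases before the RefSeq gene start (GRCh38.p14), 5′ to 3′ on the gene's own strand. This start need not be the outermost start of the gene. By the GENCODE gene bounds, the POC1A stretch lies wholly inside the gene, and those of PLK4 and CEP57 lie partly inside. Capitals mark 3 kinds of word, on either strand: TTTGAA or TTCGAA (cell cycle homology region, CHR), TTTCCCGC, TTTCGCGC, TTTGCCGC or TTTGGCGC (E2F), and CCAAT. The windows are chr10:93496362-93496611 (plus strand) for CEP55, chr4:127880643-127880892 (plus strand) for PLK4, chr1:47314148-47314397 (minus strand) for STIL, chr3:52154424-52154673 (minus strand) for POC1A, chr12:89526048-89526297 (minus strand) for POC1B and chr11:95789764-95790013 (plus strand) for CEP57.
CEP55: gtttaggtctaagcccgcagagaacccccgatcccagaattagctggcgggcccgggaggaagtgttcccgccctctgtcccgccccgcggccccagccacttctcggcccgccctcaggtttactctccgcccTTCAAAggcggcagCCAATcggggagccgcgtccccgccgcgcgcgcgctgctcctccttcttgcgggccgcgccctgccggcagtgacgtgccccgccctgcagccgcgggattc
PLK4: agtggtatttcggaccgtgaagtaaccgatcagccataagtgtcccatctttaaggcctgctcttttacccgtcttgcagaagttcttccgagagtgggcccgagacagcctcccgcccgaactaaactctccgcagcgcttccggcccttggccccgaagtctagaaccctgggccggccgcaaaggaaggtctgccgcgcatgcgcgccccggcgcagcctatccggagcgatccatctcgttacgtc
STIL: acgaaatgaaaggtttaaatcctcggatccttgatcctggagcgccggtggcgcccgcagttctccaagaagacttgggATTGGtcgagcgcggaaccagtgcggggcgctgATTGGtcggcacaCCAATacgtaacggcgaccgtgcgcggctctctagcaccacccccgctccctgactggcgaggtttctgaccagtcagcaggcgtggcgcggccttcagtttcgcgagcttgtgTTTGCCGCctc
POC1A: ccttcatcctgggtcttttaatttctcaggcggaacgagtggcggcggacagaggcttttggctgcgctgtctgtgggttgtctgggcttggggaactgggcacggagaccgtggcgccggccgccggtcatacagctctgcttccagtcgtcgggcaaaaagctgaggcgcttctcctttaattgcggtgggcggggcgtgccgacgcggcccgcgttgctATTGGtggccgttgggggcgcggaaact
POC1B: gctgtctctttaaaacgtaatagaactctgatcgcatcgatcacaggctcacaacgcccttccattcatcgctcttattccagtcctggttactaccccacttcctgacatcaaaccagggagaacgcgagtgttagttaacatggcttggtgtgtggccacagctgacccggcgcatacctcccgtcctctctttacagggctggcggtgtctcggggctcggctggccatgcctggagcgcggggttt
CEP57: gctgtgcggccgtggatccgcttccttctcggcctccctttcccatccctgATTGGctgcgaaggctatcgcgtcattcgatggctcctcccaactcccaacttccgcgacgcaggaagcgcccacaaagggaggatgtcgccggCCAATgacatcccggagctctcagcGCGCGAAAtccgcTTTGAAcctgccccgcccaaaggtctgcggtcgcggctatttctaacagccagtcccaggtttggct

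Of the 48 members 43 had an upstream sequence in the RefSeq table. A CHR word stood in 7 of these 43 (16.3%), against 14.3% of all 35116 upstream stretches of this length. An E2F word stood in 5 (11.6%, against 2.79% of all) and CCAAT in 22 (51.2%, against 32.0%). The 35116 stretches were not limited to the 17194 tested genes, whereas every member was tested, so the sets are not alike. Among the 7 matched members that were at least 2-fold lower in DTHIB, 1 held a CHR word (CEP55), 1 an E2F word (STIL) and 3 CCAAT. Among the 17 matched members that were higher or did not pass the test, 2 held a CHR word, 3 an E2F word and 9 CCAAT. The heat shock element, searched as 3 alternating GAA and TTC units with 2 free bases between neighbours, was found in 0 of the 43 and in 0.441% of all. These matches are descriptions of the letters in the windows. Some counted windows lie wholly inside the GENCODE gene bounds, among them those of POC1A, CEP128, CEP164, CNTRL and CEP112. For CEP128 the window is chr14:80941739-80941988, and the gene runs from 80476983 to 80959517 on the minus strand. The counts therefore cannot be read as promoter content, which was not tested. The upstream sequences of the remaining 5 were not analysed here.

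The 8 genes that fell at least 2-fold were CEP55, PLK4, STIL, POC1A, CEP128, CENPJ, SASS6 and CEP78. Of these PLK4, STIL, CENPJ and SASS6 act in procentriole assembly, while CEP128 belongs to the appendages of the older centriole and CEP78 was listed with cilium genes. In DTHIB 28 of 48 members fell (58.3%), 6 rose (12.5%) and 14 did not pass the test, which was limma on log2(normalized count + 1) with Benjamini-Hochberg adjustment over all tested genes and a threshold of 0.05. Of all tested genes 33.7% fell and 31.0% rose, and the counts by role below stand beside these shares. Falls of at least 2-fold were found in 8 members (16.7%), against 4.36% of all tested genes, and no member rose as much. The share of members that changed at all, 34 of 48 (70.8%), was near that of all tested genes (64.6%). So was the share whose groups did not overlap, 32 of 48 (66.7%), against 57.9%. The median log2 fold change was -0.23 over the members and -0.0051 over all tested genes. The members were chosen with earlier results of these data known, so these shares are a description. In a bulk library, fewer cells in the cell cycle stage that makes an RNA and less of that RNA per cell cannot be told apart.

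**Figure D1:**
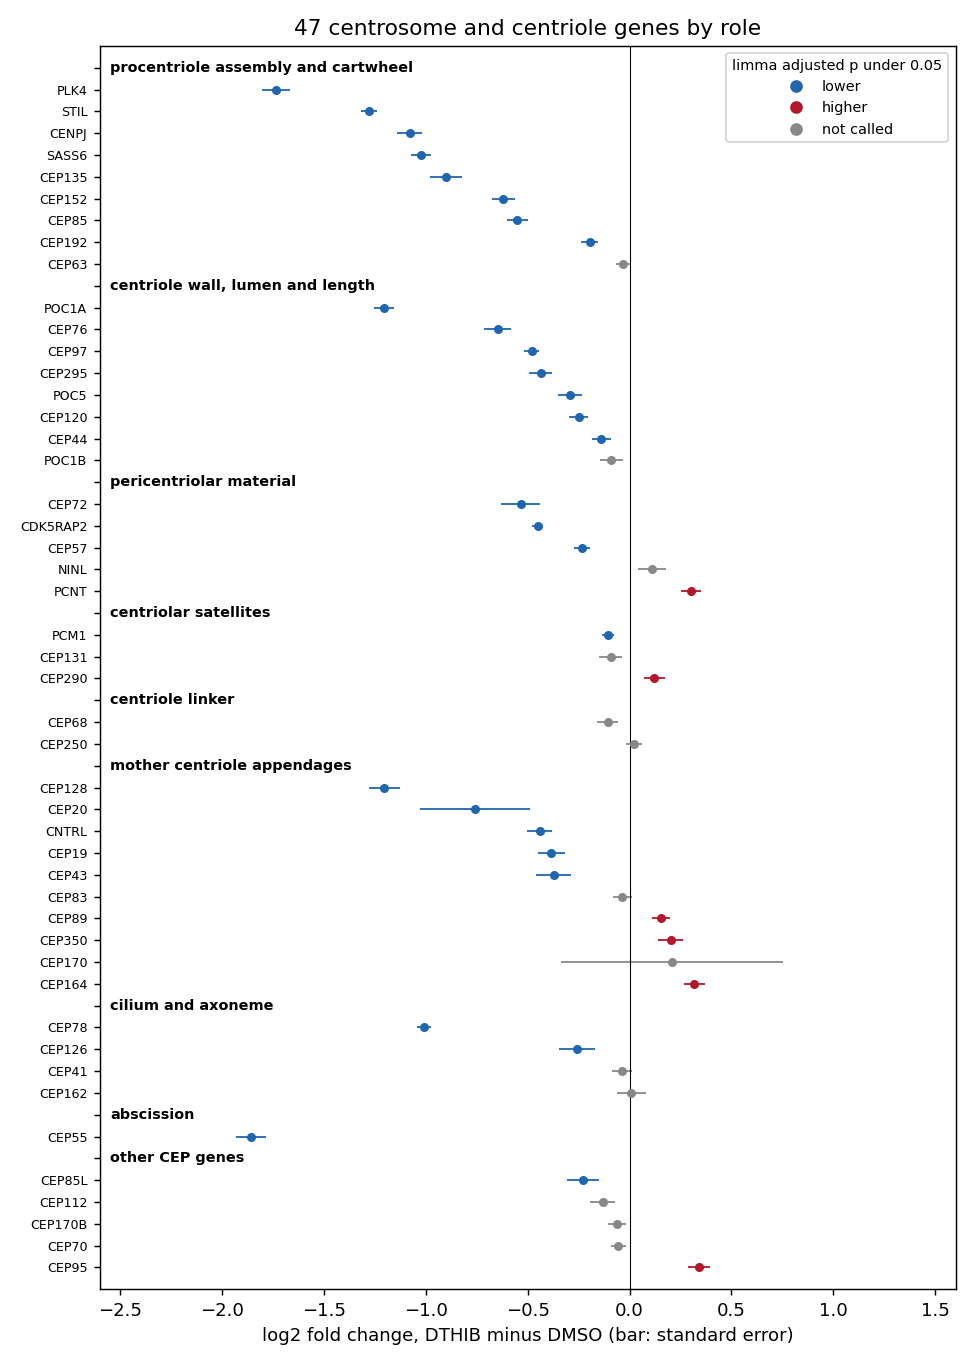
Log2 fold change (DTHIB minus DMSO, horizontal axis) of 47 of the 48 genes, grouped by role; points are limma estimates, bars standard errors, and colours the call at an adjusted p under 0.05. Procentriole assembly genes lie between -1.74 and -0.03, all left of 0, while the highest member, CEP95, is at 0.34. The widest bar belongs to CEP170, whose libraries differed widely within each group.

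Procentriole assembly genes had the lowest median of the roles with more than 1 member, -0.90 on the log2 scale: 8 of 9 fell and none rose. PLK4, the kinase that starts centriole duplication (chromosome 4, 127880861 to 127899195, plus strand; positions here are from GENCODE 29 on GRCh38), had 1237, 1233, 1212 and 1142 normalized counts in the DMSO libraries and 366, 319, 421 and 347 in the DTHIB libraries. Every DTHIB library was below every DMSO library, and the mean was 30.1% of that in DMSO. The log2 fold change was -1.74 (SE 0.068; limma adjusted p = 6.9e-13). STIL, which PLK4 phosphorylates to bring in the cartwheel (chromosome 1, 47250139 to 47314147, minus strand), had 1974, 2043, 2011 and 1908 normalized counts in the DMSO libraries and 806, 829, 844 and 791 in the DTHIB libraries. Its DTHIB libraries lay within a narrow range far below DMSO, and it fell by 1.28 on the log2 scale (SE 0.038; limma adjusted p = 2.3e-14).

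SASS6, which forms the spokes and hub of the cartwheel (chromosome 1, 100083563 to 100132955, minus strand), had 1484, 1472, 1468 and 1419.9 normalized counts in the DMSO libraries and 680.4, 705, 808 and 684 in the DTHIB libraries. The groups did not overlap, and the DTHIB mean was 49.2% of the DMSO mean. CENPJ, which adds tubulin to the growing wall (chromosome 13, 24882284 to 24922889, minus strand), had 1400.2, 1392, 1315 and 1282 normalized counts in the DMSO libraries and 555, 649, 707 and 643 in the DTHIB libraries, again with no overlap. Their log2 fold changes were -1.02 (SE 0.051) and -1.08 (SE 0.06). CEP135, which links the cartwheel to the wall, fell by 0.90 on the log2 scale, from 452 ± 23.5 to 242 ± 28.9 normalized counts (mean ± SD with n = 4 in each group, here and below).

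The scaffolds that hold PLK4 on the parent centriole differed among themselves. CEP152 had 749, 679, 676 and 653 normalized counts in the DMSO libraries and 451, 419, 480.4 and 443 in the DTHIB libraries, and fell by 0.62 on the log2 scale. CEP63, with which CEP152 forms a complex, had 1576, 1600.0, 1539 and 1622 normalized counts in the DMSO libraries and 1550.4, 1499, 1568 and 1575 in the DTHIB libraries. The CEP63 groups overlapped and its log2 fold change was -0.03 (limma adjusted p = 0.411). CEP192, the other PLK4 receptor, fell by 0.20 from 1278 ± 39.0 to 1116 ± 49.3, and CEP85, which binds STIL, fell by 0.55. The values of CEP85 were 977, 1006, 1001 and 862 normalized counts in the DMSO libraries and 680.4, 643, 651 and 646 in the DTHIB libraries, without overlap. Within this role the order of the falls was PLK4, STIL, CENPJ, SASS6, CEP135, CEP152, CEP85, CEP192 and CEP63. Neighbours in this order whose log2 fold changes lay within the sum of their standard errors were CENPJ with SASS6, SASS6 with CEP135, and CEP152 with CEP85; the differences between these fold changes were not tested.

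**Figure D2:**
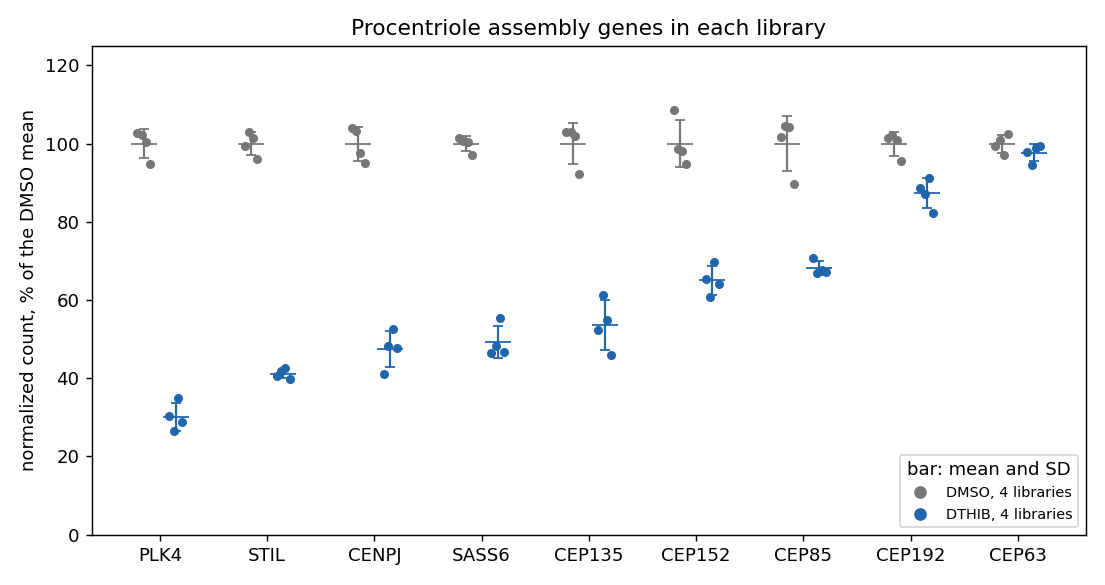
Normalized count of each of the 9 procentriole assembly genes in each library, as a percent of that gene's DMSO mean (vertical axis from 0); points are libraries and bars the mean and SD of 4. DTHIB means run from 30.1% for PLK4 to 97.7% for CEP63, and only for CEP63 do the groups overlap.

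Genes of the centriole wall, lumen and length fell in 7 of 8 cases and none rose (median log2 fold change -0.36). POC1A, a WD40-repeat protein of the centriole lumen (chromosome 3, 52075253 to 52154690, minus strand), had 1029.6, 988, 966 and 984 normalized counts in the DMSO libraries and 427, 411, 454 and 427 in the DTHIB libraries. The groups were far apart and the mean fell to 43.3% of DMSO (log2 fold change -1.21, SE 0.047; limma adjusted p = 7.7e-13). Its paralogue POC1B (chromosome 12, 89419718 to 89526024, minus strand) had 709.7, 849, 759 and 755 normalized counts in the DMSO libraries and 718, 693, 786 and 689 in the DTHIB libraries. These groups overlapped, and its log2 fold change of -0.09 did not pass the test (limma adjusted p = 0.187). Exons of POC1B overlap those of the readthrough transcript POC1B-GALNT4 on the same strand, which averaged 7.49 normalized counts in DMSO against 12.7 in DTHIB.

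CEP97, which with CCP110 caps the end of the centriole, had 1587, 1634, 1641 and 1627 normalized counts in the DMSO libraries and 1201, 1152, 1201 and 1096 in the DTHIB libraries, and fell by 0.48 on the log2 scale with no overlap. CEP76, which limits reduplication, fell by 0.65 and CEP295, needed for newborn centrioles to become centrosomes, by 0.44. POC5, a lumen protein that binds centrin, fell by 0.29 and CEP120, a partner of CENPJ in elongation, by 0.25. CEP44 had a log2 fold change of -0.14 (limma adjusted p = 0.0197) with groups that overlapped. That call was lost when DMSO replicate 1, DMSO replicate 2 or DTHIB replicate 4 was left out, each time at -0.12. It was also lost under quantile normalization (-0.07), with DESeq2 on recovered reads (-0.13) and with the length and GC trend removed (-0.04).

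Of 5 genes of the pericentriolar material 3 fell and 1 rose. CDK5RAP2, which activates the gamma-tubulin ring complex, had 4222, 4258, 4161 and 4211 normalized counts in the DMSO libraries and 3112, 3015, 3122 and 3078 in the DTHIB libraries. The libraries of each group lay close together, and it fell by 0.45 on the log2 scale (SE 0.028; limma adjusted p = 2.9e-10). CEP57, which organizes pericentriolar material, had 1962, 2021, 1839 and 1889.9 normalized counts in the DMSO libraries and 1624, 1572, 1693 and 1674 in the DTHIB libraries, and fell by 0.23 without overlap. CEP72 fell from 224 ± 20.6 to 155 ± 17.7. Pericentrin (PCNT), the large scaffold of the material, rose by 0.30 on the log2 scale (SE 0.051; limma adjusted p = 6.5e-05). Its values were 1709.6, 1585, 1627 and 1627 normalized counts in the DMSO libraries and 1776, 2192, 2042 and 2084 in the DTHIB libraries. The lowest DTHIB library, replicate 1, was only slightly above the highest DMSO library. NINL, a ninein-like protein that anchors microtubules, had 285, 307, 292 and 265 normalized counts in the DMSO libraries and 289, 307, 314 and 329 in the DTHIB libraries. The groups overlapped and NINL did not pass (0.11).

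The satellite and linker genes had log2 fold changes between -0.11 and 0.12. PCM1, the scaffold of centriolar satellites, had 5265, 5375, 5138 and 4988 normalized counts in the DMSO libraries and 4841, 4762, 4982 and 4714 in the DTHIB libraries. The groups were adjacent without overlap and it fell by 0.11 on the log2 scale (limma adjusted p = 0.00645), a call that was lost under quantile normalization (-0.0022). CEP290, a satellite and transition zone protein, had 947, 999, 889 and 836 normalized counts in the DMSO libraries and 1022, 985, 994 and 984 in the DTHIB libraries. Here the groups overlapped, and its log2 fold change of 0.12 (limma adjusted p = 0.043) did not pass in 6 of the 8 fits without 1 library, being 0.08 without DMSO replicate 4. Those 6 fits left out DMSO replicates 3 and 4 and DTHIB replicates 1, 2, 3 and 4. The call of CEP290 was also lost with no filter on low values (limma adjusted p = 0.0639). CEP131 did not pass (-0.09), but did once a trend with length and GC was removed (-0.18).

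Of the linker proteins that tie the centrioles together, CEP250 had 1780.4, 1724, 1709.6 and 1636 normalized counts in the DMSO libraries and 1634, 1822, 1778 and 1729.5 in the DTHIB libraries, with overlapping groups. CEP68 had 613, 563, 567 and 555 normalized counts in the DMSO libraries and 533, 513, 572 and 514 in the DTHIB libraries, also overlapping. Their log2 fold changes were 0.02 and -0.11. CEP68 passed only without DTHIB replicate 3 (-0.14). CEP250 changed sign, to -0.21 (limma adjusted p = 0.000221), with the length and GC trend removed, and passed as higher under quantile normalization (0.11).

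Of 10 appendage genes of the older centriole 5 fell and 3 rose, against 33.7% and 31.0% of all tested genes. The share that rose was thus near that of all tested genes, and the median was -0.20 on the log2 scale. CEP128, a subdistal appendage protein (chromosome 14, 80476983 to 80959517, minus strand), had 631, 669.9, 696 and 658 normalized counts in the DMSO libraries and 300.1, 239, 319 and 299 in the DTHIB libraries. The groups did not overlap and the mean fell to 43.6% of DMSO (log2 fold change -1.20, SE 0.076; limma adjusted p = 4.3e-10). CNTRL (centriolin) had 616, 658, 639.6 and 578 normalized counts in the DMSO libraries and 475, 467, 409 and 486 in the DTHIB libraries, and fell by 0.44. CEP19 and CEP43, which act together at the older centriole in cilium formation, fell by 0.38 and 0.37. CEP20 (also known as FOPNL, related to CEP43) had 258, 731, 226 and 215 normalized counts in the DMSO libraries and 213, 165, 215 and 148 in the DTHIB libraries. DMSO replicate 2 was far above the other libraries. The log2 fold change of CEP20 was -0.76 (limma adjusted p = 0.0212) and -0.35 without that library, and it did not pass without DTHIB replicate 4 (-0.66) or with DESeq2 on recovered reads (-0.94).

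Of the distal appendage genes CEP164 and CEP89 rose and CEP83 did not pass. CEP164, which recruits the kinase TTBK2 to start a cilium (chromosome 11, 117314557 to 117413268, plus strand), had 931, 866, 908 and 856 normalized counts in the DMSO libraries and 996, 1175, 1103 and 1173 in the DTHIB libraries. All DTHIB libraries were above all DMSO libraries, and the log2 fold change was 0.32 (SE 0.052; limma adjusted p = 4.7e-05). CEP89 rose by 0.16, from 934 ± 42.2 to 1041 ± 42.8. CEP83, which anchors the other distal appendage proteins, had 890.2 ± 49.3 in DMSO and 868 ± 29.7 in DTHIB (-0.03). CEP350, which recruits CEP19 and CEP43, rose by 0.20, from 1298 ± 59.5 to 1500.0 ± 173, with groups that overlapped, a rise that was 0.13 without DTHIB replicate 2 and did not pass after the trend with length and GC was removed (0.11).

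CEP170, a subdistal appendage protein and paralogue of CEP170B, had 73.7, 11.5, 10.6 and 53.1 normalized counts in the DMSO libraries and 16.7, 56.3, 16.0 and 59.8 in the DTHIB libraries. The 8 values formed a low set (10.6 to 16.7) and a high set (53.1 to 73.7), each with libraries of both groups. Its pseudogene CEP170P1 shares sequence with it, and whether reads were placed on the pseudogene was not tested. With such a spread within each group no comparison can be drawn for CEP170 (log2 fold change 0.21, SE 0.55).

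Among the 5 cilium and axoneme genes 2 fell and none rose. CEP78, which limits a ubiquitin ligase at the centriole, had 2296, 2363, 2277 and 2289 normalized counts in the DMSO libraries and 1113, 1181, 1172 and 1122 in the DTHIB libraries. The groups were far apart, at 49.7% of the DMSO mean, and it fell by 1.01 on the log2 scale (SE 0.035; limma adjusted p = 1.4e-13). CEP126 had 171, 164, 166 and 155 normalized counts in the DMSO libraries and 150.0, 134, 133 and 132 in the DTHIB libraries, and fell by 0.26, a call that was lost with DESeq2 on recovered reads (adjusted p = 0.0675). CEP41 (-0.04) and CEP162 (0.01) did not pass.

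CEP55 had the largest fall of all 48. It does not build centrioles: it sits at the midbody and recruits the machinery that separates daughter cells. It lies on chromosome 10, 93496632 to 93529092, plus strand. Its values were 2699.8, 2768, 2808 and 2466 normalized counts in the DMSO libraries and 787, 620.1, 864 and 709 in the DTHIB libraries, so the highest DTHIB library was far below the lowest DMSO library. The mean fell to 27.7% of DMSO (log2 fold change -1.86, SE 0.074; limma adjusted p = 9.1e-13).

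Of the 5 remaining CEP genes 1 rose and 1 fell. CEP95 rose by 0.34, with 804, 745, 732 and 677 normalized counts in the DMSO libraries and 878, 971, 915 and 976 in the DTHIB libraries, and the groups did not overlap. Exons of CEP95 overlap those of DDX5 and SMURF2 on the opposite strand, and DDX5, with a mean of 24452 normalized counts in DMSO, rose by 0.20 on the log2 scale, so without a stated strand setting the counts of CEP95 are uncertain. CEP85L, a paralogue of CEP85, had 195, 196, 211 and 218 normalized counts in the DMSO libraries and 167, 189, 174 and 172 in the DTHIB libraries. The groups were adjacent without overlap, and it fell by 0.23 on the log2 scale (limma adjusted p = 0.0192). The call of CEP85L was lost without DMSO replicate 3 (-0.21), without DMSO replicate 4 (-0.20) and with DESeq2 on recovered reads (-0.21). CEP70 (-0.05), CEP112 (-0.13) and CEP170B (-0.06) did not pass, CEP112 passing without DTHIB replicate 1 (-0.16) and CEP170B without DMSO replicate 2 (-0.12) and with the length and GC trend removed (-0.22). CEP170B had 4291, 3834, 4449 and 4595 normalized counts in the DMSO libraries and 3898, 4219, 4122 and 4178 in the DTHIB libraries, with groups that overlapped. In all, 9 members have exons that overlap a tested gene on the opposite strand: CEP290, CEP295, CEP44, CEP63, CEP68, CEP72, CEP76, CEP83 and CEP95.

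Related or partner genes were compared within each library, so that the scaling of the libraries drops out apart from the pseudocount. The log2 ratio of POC1A to POC1B was 0.54, 0.22, 0.35 and 0.38 in the DMSO libraries and -0.75, -0.75, -0.79 and -0.69 in the DTHIB libraries. This was a shift of -1.12 (exact permutation test, two-sided, p = 0.0286, the smallest p that 4 against 4 allows, and adjusted p = 0.0476 over 5 pairs). The change of sign is in counts, which do not rank genes of unlike exon length. Per kb of merged exon POC1A was above POC1B in DMSO (441 against 87.8) and in DTHIB (191 against 82.5). The merged lengths, 2.247 kb for POC1A and 8.746 kb for POC1B, count the exons of every annotated isoform. Which isoforms the cells make was not tested, so neither measure settles the order of POC1A and POC1B. The ratio of CEP152 to CEP63 was -1.07, -1.23, -1.18 and -1.31 in DMSO and -1.78, -1.84, -1.70 and -1.83 in DTHIB, a shift of -0.59 with the same p and adjusted p. The ratio of ninein (NIN, not a member) to NINL was 3.75, 3.63, 3.69 and 3.82 in DMSO and 3.52, 3.42, 3.46 and 3.36 in DTHIB, a shift of -0.28, again with no overlap and the same p and adjusted p.

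The ratio of CEP85 to CEP85L was 2.32, 2.35, 2.24 and 1.98 in DMSO and 2.02, 1.76, 1.90 and 1.91 in DTHIB. These overlapped through DMSO replicate 4, and the shift of -0.32 did not pass (exact permutation p = 0.0571, adjusted p = 0.0714). Without that library the shift was -0.40 (exact permutation, adjusted p = 0.0357). Leaving out the only DMSO library in the DTHIB range separates the groups by construction, so this p gives no support for the shift. The ratio of CEP170 to CEP170B gave no difference that could be read, since its log2 values ran from -8.58 to -5.84 within DMSO alone.

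**Figure D3:**
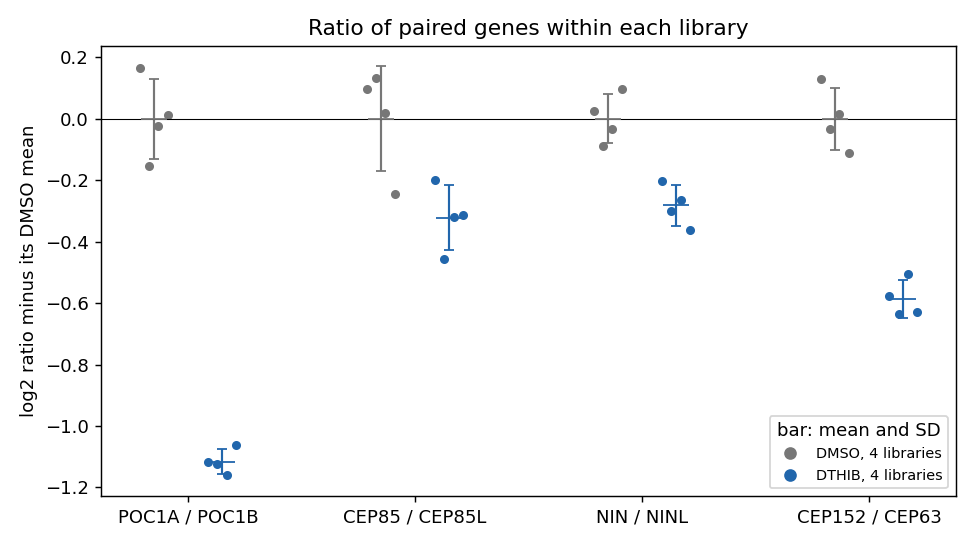
Log2 ratio of 4 gene pairs in each library, minus the mean of the DMSO libraries for that pair (vertical axis); points are libraries and bars the mean and SD of 4. The DTHIB libraries lie near -1.12 for POC1A to POC1B and near -0.59 for CEP152 to CEP63, below all DMSO libraries, whereas for CEP85 to CEP85L the lowest DMSO library reaches into the DTHIB range.

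Levels between genes can be compared only per length, here as the mean normalized count per kb of merged GENCODE 29 exons. Merged exons include isoforms that these cells may not make, so the ranks below depend on the annotation. In DMSO the highest levels were those of CEP55 (821 ± 46.7 per kb), CEP70 (609 ± 18.2) and CEP170B (596 ± 45.8), of which the last 2 lay within their spread of each other. POC1A (441), CDK5RAP2 (418), SASS6 (368) and PCM1 (359) followed. Leaving out CEP170, the lowest were CEP126 (20.03), CEP43 (20.9) and CEP85L (21.7). CEP43 has 16.016 kb of merged exons, and in DMSO counts it was above CEP126 (335 against 164). In DTHIB CEP55 was at 228 per kb, below, among others, CEP70 at 586, CEP170B at 570.1, PCM1 at 334, CDK5RAP2 at 306 and CEP131 at 285. CEP57, at 231, could not be ordered against it, given the DTHIB spread of CEP55 (745 ± 104 normalized counts). PLK4 went from 269 to 81.1 per kb and STIL from 272 to 112. Over the 47 members other than CEP170, Spearman's rho of the log2 fold change with the DMSO level per kb was -0.26 and with exon length 0.39; these are correlations across genes, which share libraries and are not independent.

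**Figure D4:**
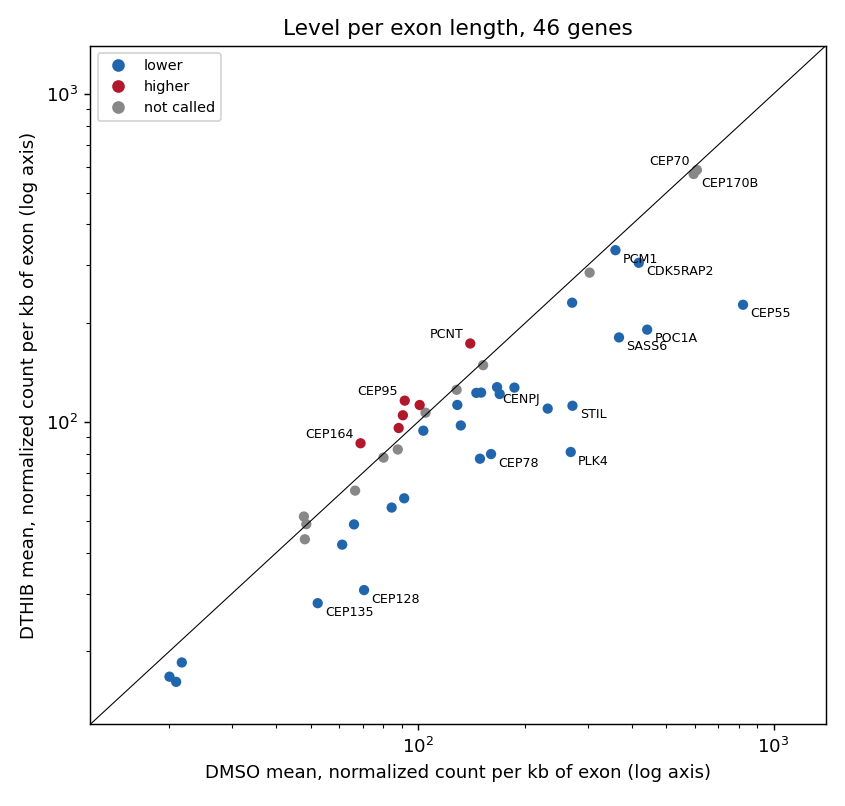
Mean normalized count per kb of exon in DMSO (horizontal) and in DTHIB (vertical), both on log axes, for 46 members, CEP170 being among those left out; the line marks equal levels and colours the call. CEP55 is the rightmost point at 821 per kb in DMSO and 228 in DTHIB, and the members that rose lie close above the line.

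Counts in 4 lists of other genes of these structures stand beside 33.7% of all tested genes that fell and 31.0% that rose. Of 26 further duplication and length genes 15 fell and 5 rose (median log2 fold change -0.24). KIF24, a kinesin that works with CCP110 at the centriole end, fell from 847 ± 7.90 to 254 ± 13.9, and TUBE1 (epsilon-tubulin, needed for stable triplet microtubules) rose from 559 ± 13.5 to 1317 ± 18.2. Of 19 subunits and partners of the gamma-tubulin ring complex and augmin, 12 fell and 2 rose (median -0.50). TUBG1, the main gamma-tubulin, fell from 5299 ± 117 to 2813 ± 54.0, and the augmin subunit HAUS6 from 3677 ± 33.0 to 2046 ± 90.8. Of 18 spindle pole and mitotic centrosome regulators 15 fell and 3 rose (median -1.16), with SPAG5 at -1.63 and the kinase PLK1, which enlarges the pericentriolar material before mitosis, at -1.61. Of 9 tested further appendage and linker genes 5 fell and 3 rose (median -0.17), with LRRC45 at -0.69 and SCLT1 at -0.996, a list whose rises are near the share of all tested genes.

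Genes of ciliary transport and of the transition zone at the cilium's base went the other way. Of 46 tested, 29 rose and 6 fell, against 31.0% and 33.7% of all tested genes, and the median was 0.18 on the log2 scale. The motor DYNC2H1, which carries cargo back from the ciliary tip, rose from 662 ± 65.1 to 1177 ± 56.7, and the transport subunit IFT140 from 513 ± 23.1 to 860.3 ± 67.7. No rise in this list reached 2-fold. Proliferation markers fell in 8 of 8 cases, against 33.7% of all tested genes (median -1.40), with RRM2 at -2.35 and MCM2 at -1.37. The summed level of these markers was 56649 to 63643 normalized counts in DMSO and 18716 to 21957 in DTHIB. Their part in the falls of the centrosome and centriole genes was not tested.

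**Figure D5:**
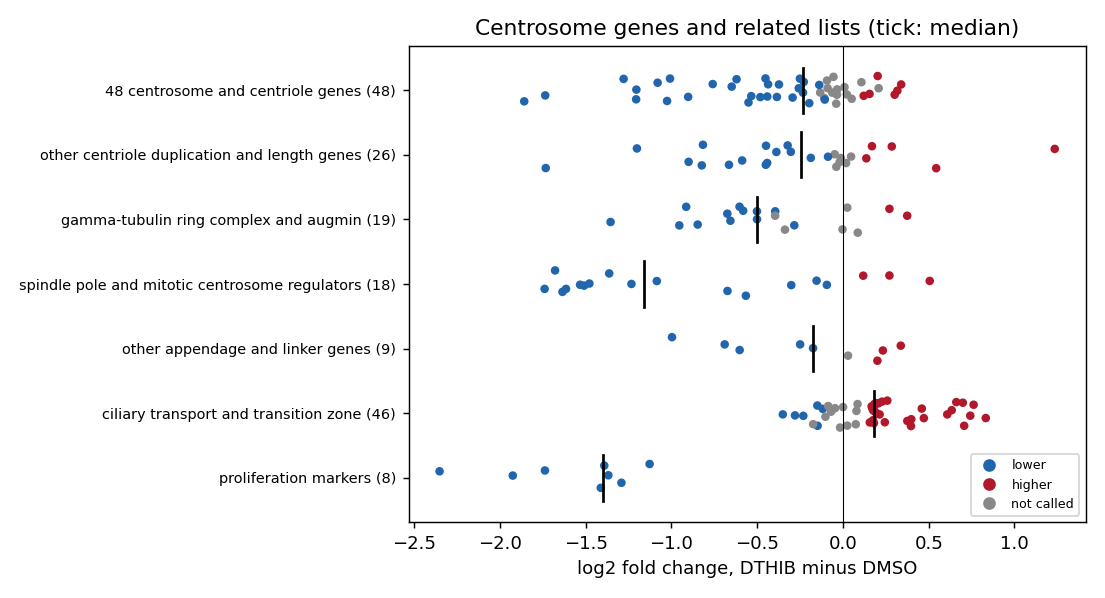
Log2 fold change (horizontal axis) of each tested gene in the 48 members and 6 related lists, with the number of tested genes in brackets; ticks are medians and colours the call. Medians run from -1.40 for proliferation markers and -1.16 for spindle pole regulators to 0.18 for ciliary transport genes, with the 48 members at -0.23.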

How the data were processed

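Per the submitters' processing notes, the tools were DESeq2 2.11.40.2, featureCounts 1.6.3, StringTie 1.3.4, HISAT2 2.1.0 and Trimmomatic 0.36.5, and the build GRCh38. The sources used here do not give their order, settings, annotation or strand. The authors deposited 1 signal per gene and library, by its name a DESeq2-normalized count, which is reads divided by a size factor, and a DESeq2 result with a mean signal, log2 fold change, its error, a Wald score, a p-value and an adjusted p-value. The authors' deposited table has 24 members lower and 5 higher at adjusted p under 0.05. Values were whole multiples of 1 step per library (100% within 0.01), so reads were recovered. Symbols were matched for 41967 of 58884 identifiers. All 8 columns were used.

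Groups follow the treatment that each title names. Log2(normalized count + 1) was fitted with limma 3.58.1 in R 4.3.3 (eBayes with trend; two-sided tests) for genes averaging at least 10. Fold changes are on this scale, which understates low genes. Alternatives were pseudocounts 0.5 and 5, a minimum mean of 50 or none, quantile normalization, TMM rescaling, DESeq2 1.42.0 and edgeR 4.0.16 on recovered reads, a block for the replicate number, and each library left out. A trend with length and GC was removed as an alternative chosen after seeing the data. Values per library are given for the 2 members of each role with the smallest adjusted p and for paired genes, and from the other lists 2 genes each; those of SASS6, CENPJ, PCNT, CEP164 and CEP20 were added after their values were seen. The values of 1 member are not reported here, although counts and medians include it. Members, roles and lists were chosen with earlier results of these data known. The fitting script was tested on simulated data. No pair of libraries agreed within sampling noise.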

Additional observations from a re-analysis of the deposited data

Results flagged for a closer look

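In 106 groups of 4 libraries (48 genes and 5 pair ratios, each in DMSO and DTHIB) 5 held 1 library that stood far from the other 3; chance gives about 1 in 20. CEP20 in DMSO replicate 2 had 731 normalized counts against 215 to 258 in the other DMSO libraries. CEP135 in DMSO replicate 4 had 417 against 460.2 to 465, and CEP192 in the same library 1221 against 1292 to 1305. CEP112 in DMSO replicate 1 had 400.3 against 369 to 373. CEP126 in DTHIB replicate 1 had 150.0 against 132 to 134.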

How the results depend on the processing

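Under 18 alternatives (17 for CEP170) 35 of the 48 genes kept their call in all, and 13 changed in at least 1. Of genes that did not pass, 7 changed sign in at least 1 setting without passing (CEP162, CEP170, CEP170B, CEP41, CEP63, CEP70 and CEP83). The number of members that fell ranged from 24 (DESeq2) to 30 (length and GC trend removed), and that of members that rose from 5 to 8, against 28 and 6. The median log2 fold change of the members was -0.16 under quantile normalization. Over the fits without 1 library it was -0.23 to -0.22, with 26 to 29 members lower and 5 or 6 higher. CEP250 turned to -0.21 with the length and GC trend removed. The pair shifts ranged, without 1 library, from -1.17 to -1.06 (POC1A to POC1B), -0.62 to -0.54 (CEP152 to CEP63), -0.31 to -0.25 (NIN to NINL) and -0.40 to -0.28 (CEP85 to CEP85L). Same-numbered libraries did not deviate together (correlations of -0.07 to 0.01, against -0.07 to 0.08 for libraries with different numbers). Whether the numbers pair the libraries is not stated, and these correlations cannot decide it. With the replicate number as a block 28 members fell and 6 rose; with the replicate block the exact sign-flip test of pair shifts (-1.12, -0.28 and -0.59, adjusted p = 0.156 each) could not pass with 4 pairs. For CEP170 the spread within each group, 10.6 to 73.7 normalized counts in DMSO and 16.0 to 59.8 in DTHIB, leaves no comparison. The causes of these changes were not tested.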
